A study of Mus musculus with 2 samples.

Results

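Secreted matrix and matricellular genes were followed through blood myeloid cells of mice with an experimental stroke. They were 9 of the 11691 genes in the deposited count table, chosen by name with earlier results of these data known: Spp1, Dmkn, Thbs1, Fn1, Vcan, F13a1, Ecm1, Adamtsl4 and Timp1. The aged library came from C57BL/6 mice of 18 to 24 months and the young library from C57BL/6 mice of 2 to 4 months, with 1 library for each age. Both ages had undergone a transient proximal middle cerebral artery occlusion (MCAo), the surgical model of ischemic stroke, 24 h earlier, so no library without stroke stands beside them here. Cells sorted as CD11b+ Ly6G- and as CD11b+ Ly6G+ went into 10x Genomics 3′ v2 libraries, which count each captured transcript once by a unique molecular identifier (UMI). The labels give neither the number of mice behind each library nor how the sorted fractions were combined. Because the genes were chosen with their values known and each age has 1 library, the ratios below are descriptions of these libraries, with no test of age.

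The extracellular matrix is the scaffold of proteins and sugars around cells, and matricellular proteins are secreted into it to tune adhesion and signalling without carrying load. Circulating monocytes make several of these proteins before they leave the blood and add more once they turn into tissue macrophages. After a vessel is blocked, fibronectin and factor XIII also enter the clot, where factor XIII crosslinks fibrin.

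The aged library held 3944 cells with 13752454 UMIs and a median of 2219 UMIs per cell, and the young library 1849 cells with 6440664 UMIs and a median of 2022. After removal of likely doublets, 932 aged and 540 young cells with the authors' label Monocyte and 2628 aged and 1133 young cells labelled Neutrophil remained, with 104 and 52 labelled cDC (conventional dendritic cell) and 58 and 70 labelled NK. All 11 classical monocyte markers were found in both monocyte sets, all 12 neutrophil markers in both neutrophil sets and all 10 NK markers in both NK sets. Of the dendritic markers 11 of 11 were found in aged and 8 of 11 in young cDC. A marker counts as found here with any UMI in the summed cells of a set. By this count all 11 classical monocyte markers were also found in both neutrophil sets. All 12 neutrophil markers were found in aged monocytes and all 10 NK markers in young neutrophils. Young monocytes and young neutrophils each held 8 of 11 dendritic markers, as young cDC did. These counts therefore cannot check the labels. The libraries shared 12 barcodes. NK cells, which are not known as a source of these transcripts, served as the guide to free RNA in the droplets. B cells could not serve so, because 19 of 41 aged and 5 of 14 young cells labelled Fol B-cell carried at least 5 UMIs of Csf1r, Ly6c2, Ccr2, Lyz2 and Chil3 and held 156 of 159 aged and 19 of 23 young UMIs of the 9 genes under that label. That split was made after the values were seen.

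A gene is called higher or lower here when its aged-to-young ratio passes 1.5-fold on at least 50 UMIs over both libraries. In monocytes Spp1, Dmkn, Thbs1, Ecm1 and Timp1 were higher (5 of the 9 genes) and 0 were lower, where 5.9% of 7780 monocyte genes were higher and 8.68% lower. In neutrophils 5 of the 9 genes reached 50 UMIs, of which Thbs1, Ecm1 and Adamtsl4 were higher in the aged library and Fn1 lower, against 3.81% of 4746 genes higher and 20.3% lower. In cDC 2 of the 9 genes reached 50 UMIs, with 0 higher and 1, F13a1, lower, against 9.31% of 2504 genes higher and 5.95% lower. By the weaker rule that the ratio's interval lies beyond 1, monocytes had 5 higher and 3 lower (18.9% and 16.0% of all genes), neutrophils 3 higher and 1 lower (5.56% and 32.1%), and cDC 0 higher and 1 lower (10.8% and 7.39%). The genes were chosen from this same contrast, so nothing is read from these shares. Levels are in CPM, the UMIs of a gene among all UMIs of a cell population scaled to the usual common total, and brackets give 95% intervals that cover counting error only, not variation among mice. Of all monocyte calls 40.5% were higher, against 28.6% when ribosomal and mitochondrial genes were left out of the total. Of all neutrophil calls 15.8% were higher, against 59.8% with TMM scaling, which moved the median log2 ratio of all neutrophil genes to 0.07 from −0.24. Markers of neutrophils were more abundant in aged monocytes, with a sum of 36011 CPM against 25369 CPM in young monocytes and 12 and 11 of 12 markers found. Macrophage markers summed to 4474 and 3897 CPM, with 11 and 10 of 11 found, and Apoe alone made up 3458 and 3182 CPM of these sums. The part of both marker sets in the monocyte ratios was not tested.

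**Figure D1:**
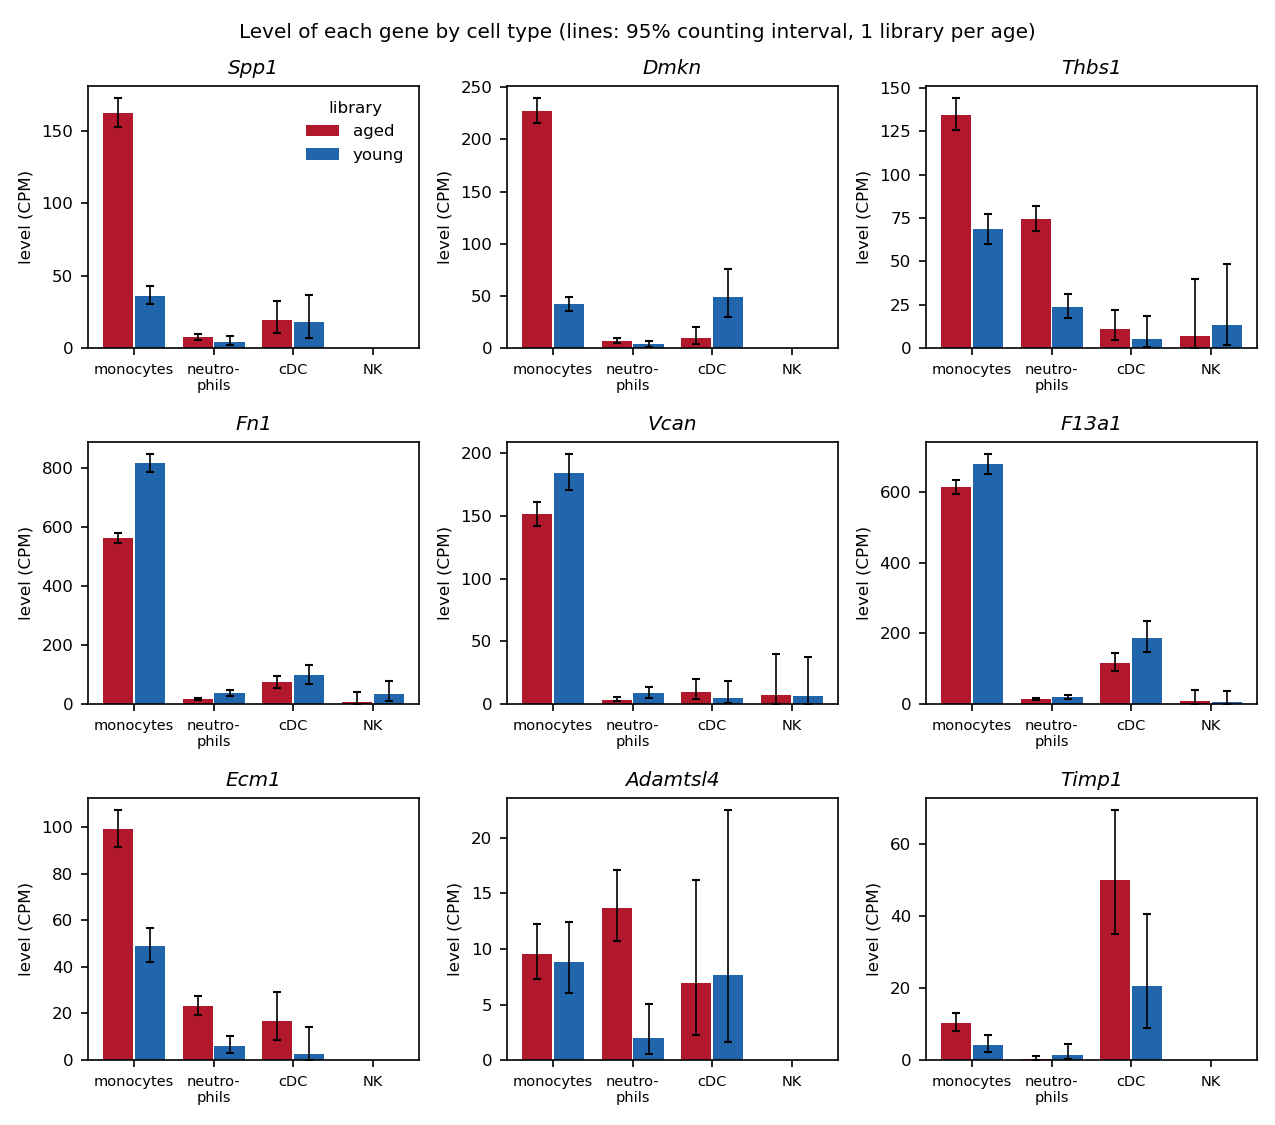
Level of each of the 9 genes in CPM in monocytes, neutrophils, conventional dendritic cells (cDC) and NK cells of the aged (red, left) and young (blue, right) library, with 95% counting intervals as lines and no line where no UMI was found. Spp1 and Dmkn stood at 162 and 227 CPM in aged monocytes and under 50 CPM in every other set shown, while Timp1 was highest in aged cDC at 50.02 CPM and Adamtsl4 in aged neutrophils at 13.7 CPM.

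Spp1 and Dmkn showed the largest aged-to-young ratios of the 9 genes in monocytes. Spp1 encodes osteopontin, a phosphoprotein that binds integrins and CD44 and draws in macrophages. Dmkn encodes dermokine, a secreted glycoprotein known mainly from the epidermis. Spp1 (GRCm38 chr5:104435118-104441050, plus strand) stood at 162 CPM (153 to 173) in aged monocytes and 36.2 CPM (30.2 to 42.9) in young monocytes. Dmkn (chr7:30763756-30781063, plus strand) stood at 227 CPM (216 to 239) in aged and 41.9 CPM (35.5 to 49.2) in young monocytes. The intervals of the ages lay far apart for both genes, with ratios of 4.49 (3.74 to 5.43) for Spp1 and 5.42 (4.58 to 6.45) for Dmkn, the 13th and 7th highest of 7778 monocyte genes with UMIs in both libraries. Of 10 epidermal markers listed only 2, Krt10 and Sbsn, were in the count table. Together they stood at 9.52 CPM in aged and 6.90 CPM in young monocytes. The part of epidermal transcripts in the Dmkn level was not tested.

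Monocytes held most UMIs of both genes. Of the Spp1 UMIs 94.6% of 1100 in the aged and 89.1% of 147 in the young library lay in monocytes, and of the Dmkn UMIs 96.1% of 1515 and 84.9% of 179. No NK cell held a UMI of either gene, and a limit of 3 UMIs per library, used here wherever a count is 0, allows a level of up to 21.5 CPM in aged and 20.05 CPM in young NK cells. In neutrophils Spp1 stood at 7.30 CPM (40 UMIs) in the aged and 4.44 CPM (9 UMIs) in the young library, and Dmkn at 7.12 CPM (39 UMIs) and 3.45 CPM (7 UMIs), all below that limit and so not told apart from free RNA.

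Promoter windows of Spp1 and Dmkn are the following.
Spp1 (chr5:104434861-104435160, plus strand): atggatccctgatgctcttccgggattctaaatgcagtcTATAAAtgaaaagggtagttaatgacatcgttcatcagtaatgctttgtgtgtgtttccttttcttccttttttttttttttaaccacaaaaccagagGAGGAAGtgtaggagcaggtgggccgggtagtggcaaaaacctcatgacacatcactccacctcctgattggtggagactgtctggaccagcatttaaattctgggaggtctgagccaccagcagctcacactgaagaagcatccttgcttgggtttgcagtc
Dmkn (chr7:30763506-30763805, plus strand): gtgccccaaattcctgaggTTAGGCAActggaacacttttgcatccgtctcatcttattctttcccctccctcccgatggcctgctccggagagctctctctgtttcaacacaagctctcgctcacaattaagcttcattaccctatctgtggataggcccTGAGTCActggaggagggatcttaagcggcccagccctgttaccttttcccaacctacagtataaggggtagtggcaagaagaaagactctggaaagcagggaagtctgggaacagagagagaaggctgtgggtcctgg

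The windows run from 250 bases before to 50 bases after the annotated start of transcription, 5′ to 3′ on the gene's own strand, as RefSeq gives them for GRCm38.p6, and are shown because these promoters belong to the genes with the largest ratios in monocytes. Capitals mark matches to 5 short motifs searched on both strands: AP-1 (TGANTCA), PU.1 (GAGGAAG), the TATA box (TATAAA), the core of the hypoxia response element (ACGTG or GCGTG) and C/EBP (TTGCNNAA). Positions are counted from 1 at the start, with −1 for the base before it. The Spp1 window held the PU.1 letters at −113 to −107 and TATAAA at −211 to −206. In the Dmkn window the AP-1 letters lay at −89 to −83 and a C/EBP match on the other strand at −231 to −224. RefSeq gives further windows for both genes, not shown. Another Spp1 window (chr5:104435942-104436241) held a C/EBP match alone. Of the other Dmkn windows, chr7:30763508-30763807 held the same matches. The window at chr7:30776155-30776454 held the AP-1 letters, a hypoxia core and another C/EBP match. Among 32851 mouse promoter windows of this length 7.81% held the AP-1 letters, 13.6% those of PU.1, 13.6% TATAAA, 43.8% a hypoxia core and 10.8% a C/EBP match. A match is a description of the letters, not a binding site.

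Spp1 and Dmkn were unevenly spread among monocytes. At full depth 28.6% of aged and 7.22% of young monocytes held a Spp1 UMI, and 48.0% and 17.2% a Dmkn UMI, at median depths of 6401.5 UMIs in aged and 6606.5 UMIs in young monocytes. Of the NK cells 0 of 58 aged and 0 of 70 young held either gene at median depths of 2314 and 2000.5 UMIs, which allows shares of up to 5.17% and 4.29%. With each monocyte thinned at random to 2000 UMIs, which left out 17 aged and 19 young cells, Spp1 was found in 17.2% of 915 aged monocytes (14.8% to 19.8%) and 4.03% of 521 young monocytes (2.51% to 6.10%). Dmkn was found in 25.5% of aged (22.7% to 28.4%) and 7.68% of young monocytes (5.54% to 10.3%). Cells with the transcript also carried somewhat more of it in the aged library, at 3.26 Dmkn UMIs per cell with any in aged against 1.63 in young monocytes at full depth, and 3.90 against 3.36 for Spp1. The 10% of aged monocytes with the most Spp1 held 73.5% of its UMIs and 1 cell held 40, whereas in the young library all 131 UMIs lay in 39 of 540 cells, with 27 of them in 1 cell.

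**Figure D2:**
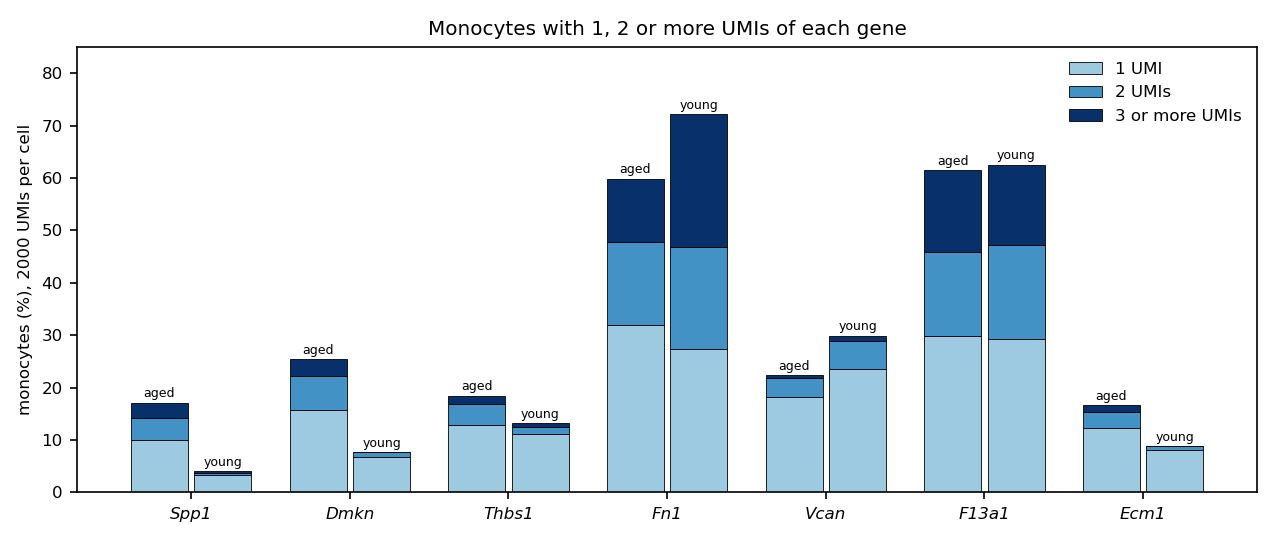
Share of monocytes with 1, 2 and 3 or more UMIs of 7 of the genes, with every cell thinned to 2000 UMIs (915 aged cells, left bar; 521 young cells, right bar). Spp1, Dmkn, Thbs1 and Ecm1 were found in more aged than young cells, and Fn1 in 59.9% of aged against 72.2% of young cells.

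Spp1 and Dmkn tended to lie in the same cells. Spp1 was found in 27.0% of aged monocytes with Dmkn (21.4% to 33.2%) and in 13.8% of those without (11.3% to 16.6%) at 2000 UMIs per cell. The young library showed the same order at 15% (5.71% to 29.8%) with and 3.12% (1.76% to 5.09%) without Dmkn, though only 6 of its cells held both genes, against 63 in the aged library. Of the aged monocytes 6.89% held both, 10.3% Spp1 alone and 18.6% Dmkn alone, compared with 1.15%, 2.88% and 6.53% of the young monocytes. Across full-depth monocytes Pearson's r between the genes was 0.228 over 932 aged and 0.242 over 540 young cells, and 0.168 and 0.116 when cells were thinned to 2000 UMIs, and all cells of a value shared 1 library.

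Cells with Spp1 or Dmkn held Ly6c2 more often and macrophage marker transcripts less than other monocytes. Ly6c2, the surface antigen of classical monocytes, was found in 87.3% of aged monocytes with Spp1 (81.0% to 92.0%) and 65.8% of those without (62.3% to 69.2%), and in 95.2% (76.2% to 99.9%) and 64.2% (59.8% to 68.4%) of the young. For Dmkn the shares were 84.5% with and 64.4% without in aged monocytes and 82.5% with and 64.0% without in young monocytes. The macrophage markers together averaged 5.82 UMIs per 2000 in aged monocytes with Spp1 and 10.1 in those without, and 3.52 and 8.20 in the young. Over all monocytes Apoe made up most of that marker sum, at 3458 of 4474 CPM in aged and 3182 of 3897 CPM in young cells. The 11 classical markers together did not follow Ly6c2, at 50.3 UMIs per 2000 in aged monocytes with Spp1 and 52.0 in those without, and 60.1 and 57.0 in the young. Neutrophil markers were more abundant in cells with Spp1, at 82.3 UMIs per 2000 in aged monocytes with Spp1 and 66.1 in those without, and 59.1 and 47.6 in the young. Their part in the result was not tested.

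Both genes were higher in the aged library on each side of a split of monocytes by Ly6c2, which was chosen after the values were seen. Ly6c2 was scored at 2000 UMIs per cell, while levels and ratios in the split are from full-depth counts. Cells without Ly6c2 by this score can therefore hold it at full depth. In monocytes with a Ly6c2 UMI, which made up 69.5% of aged and 65.45% of young monocytes, Spp1 stood at 187 and 50.2 CPM (ratio 3.72, 3.08 to 4.54). In monocytes without one it stood at 100.04 CPM in aged cells and 7.75 CPM in young cells (ratio 12.9, 6.64 to 28.7, on 9 young UMIs). Dmkn had ratios of 5.30 (4.41 to 6.40) with and 4.61 (2.97 to 7.49) without Ly6c2. By full-depth correlation over monocytes, ranked by the lower of the aged and young r among 4111 genes, the genes most like Spp1 were Hmgn2, Dmkn, Ppia, S100a10 and Lgals1, and those most like Dmkn were Gapdh, Lgals1, Sec61g, S100a11 and S100a10. The lower r lay between 0.199 and 0.252 for these, and each r was smaller when cells were thinned to 2000 UMIs.

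**Figure D3:**
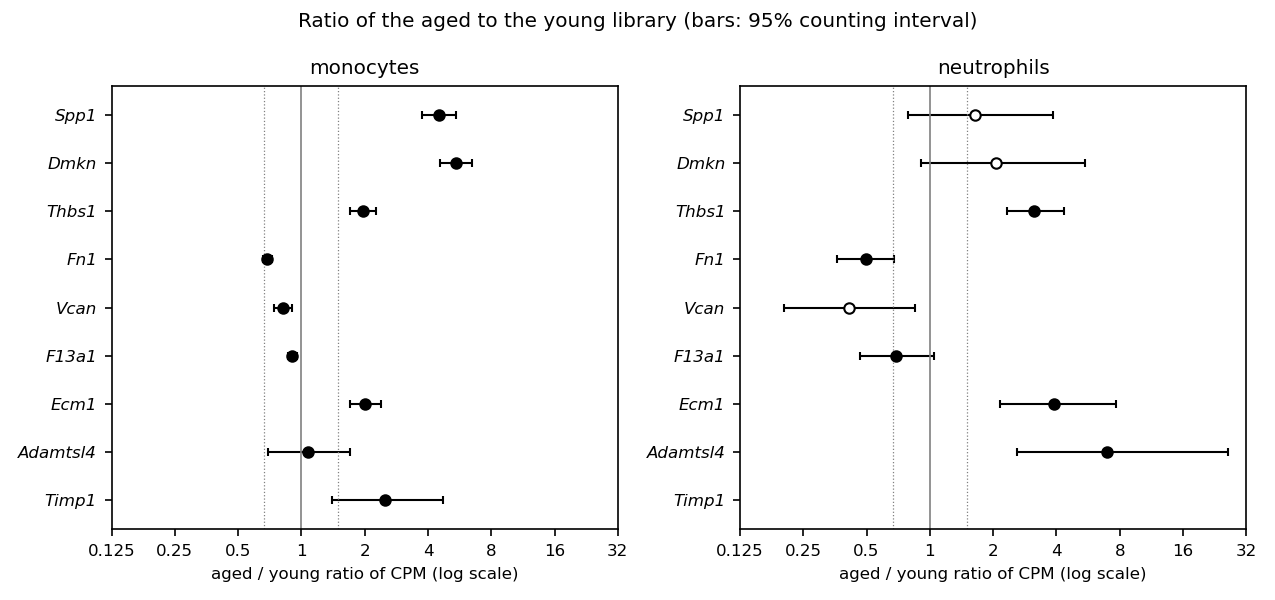
Aged-to-young ratio of the level of each gene in monocytes (left) and neutrophils (right) on a log scale, with 95% counting intervals, a solid line at 1 and dotted lines at 1.5-fold in either direction. Filled points had at least 50 UMIs over both libraries and open points fewer, Timp1 in neutrophils (1 aged and 3 young UMIs) is not drawn, and Thbs1 and Ecm1 lie above the upper dotted line in both panels.

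Fn1 and F13a1, the genes of the group with the most UMIs, and Vcan were somewhat lower in aged than in young monocytes. Fn1 encodes fibronectin, the adhesive glycoprotein that integrins bind, Vcan the large proteoglycan versican, and F13a1 the catalytic subunit of coagulation factor XIII. Fn1 (chr1:71585520-71653200, minus strand) stood at 562 CPM (543 to 580) in aged and 815 CPM (786 to 845) in young monocytes, a ratio of 0.689 (0.656 to 0.724). That lies just inside the 1.5-fold limit, and without ribosomal and mitochondrial genes in the total the ratio was 0.659, just past it. Vcan (chr13:89655312-89742509, minus strand) stood at 151 CPM (142 to 161) in aged and 184 CPM (171 to 199) in young monocytes, a ratio of 0.820 (0.742 to 0.906). F13a1 (chr13:36867178-37050244, minus strand) stood at 616 CPM (597 to 635) in aged and 680 CPM (653 to 707) in young monocytes, a ratio of 0.906 (0.861 to 0.953). The intervals of the ages did not overlap for any of the 3 genes, but the differences were small beside those of Spp1 and Dmkn. Reads in the stretch where Fn1 overlaps Apol7d, which is also in the table, could have been divided between them.

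Fn1 and F13a1 were found in most monocytes, and Vcan in fewer. At 2000 UMIs per cell F13a1 was found in 61.5% of aged (58.3% to 64.7%) and 62.6% of young monocytes (58.3% to 66.7%), with overlapping intervals. Fn1 was found in 59.9% of aged (56.6% to 63.1%) and 72.2% of young monocytes (68.1% to 76.0%), and Vcan in 22.4% (19.7% to 25.2%) and 29.9% (26.0% to 34.1%). In NK cells at full depth Fn1 was found in 1 of 58 aged and 5 of 70 young cells (1.72% and 7.14%). Fn1 was found in 65.0% of aged monocytes with F13a1 and 51.7% of those without, and in 81.0% and 57.4% of young monocytes. Vcan followed F13a1 in the same way, at 26.3% with and 16.2% without it in aged cells and 37.1% and 17.9% in young cells. Pearson's r of Fn1 with F13a1 over full-depth monocytes was 0.277 in the aged and 0.531 in the young library, and 0.139 and 0.282 after thinning.

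**Figure D4:**
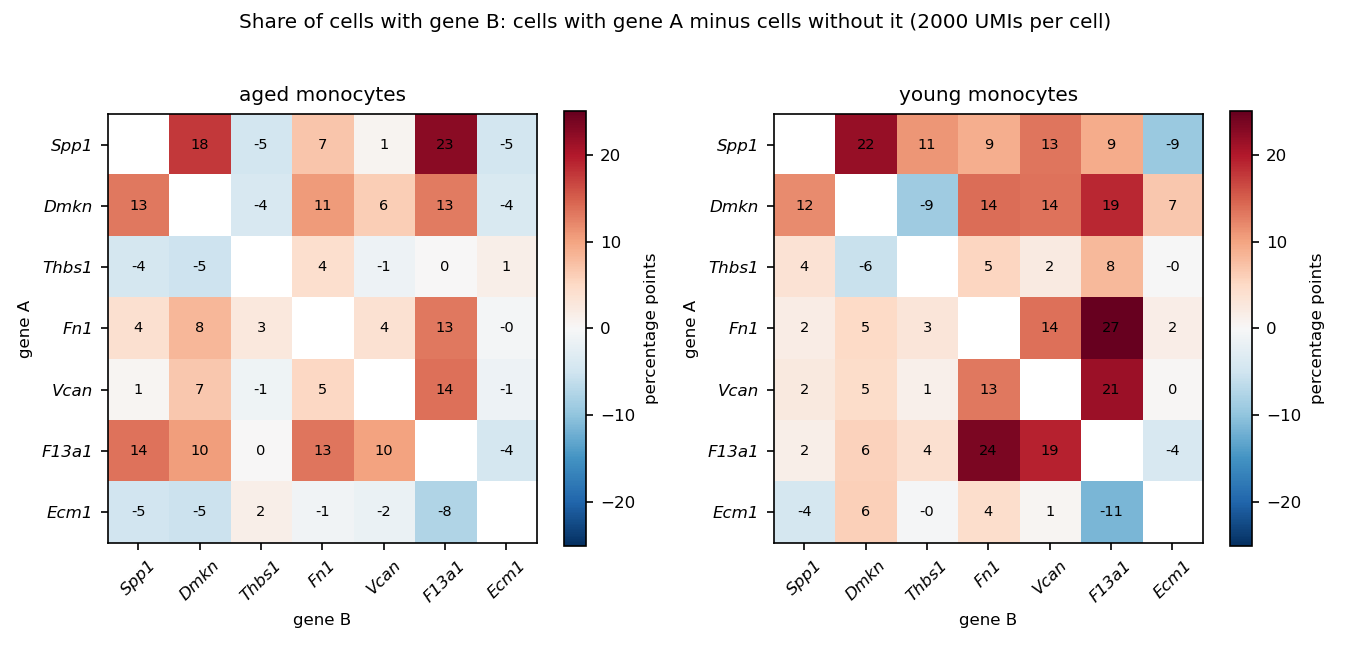
Share of monocytes with gene B among cells with gene A minus the share among cells without it, in percentage points, at 2000 UMIs per cell, in the aged (left) and young (right) library. Fn1, Vcan and F13a1 lay together in both libraries, more so in the young one, Spp1 and Dmkn also lay together, and Spp1 was found in 13.2% of aged cells with Ecm1 and 18.0% of those without, where the intervals overlap.

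Fn1 was split by Ly6c2 in the same way, and monocytes with Ly6c2 held 2768 of its aged and 2372 of its young UMIs, against 822 and 556 in monocytes without. Among aged monocytes Ly6c2 was found in 74.1% of cells with Fn1 (70.2% to 77.7%) and 62.7% of those without (57.5% to 67.6%), and among young monocytes in 76.1% (71.4% to 80.3%) and 37.9% (30.0% to 46.4%). Fn1 stood at 597 CPM in aged and 976 CPM in young monocytes with Ly6c2, a ratio of 0.612 (0.579 to 0.646). In monocytes without Ly6c2 it stood at 473 CPM in aged and 479 CPM in young cells, a ratio of 0.987 (0.885 to 1.10), and the difference between these ratios was not tested. F13a1 had ratios of 0.842 (0.796 to 0.891) with and 1.09 (0.965 to 1.22) without Ly6c2, and Vcan 0.779 (0.698 to 0.871) and 0.916 (0.720 to 1.17). The markers of nonclassical monocytes, the Ly6c2-low subset, were themselves lower in aged monocytes, 8 of 11 by at least 1.5-fold and together 607 CPM in aged against 772 CPM in young cells, and their part in these ratios was not tested. Ly6c2 and Tmsb10 were among the 5 genes most like Fn1, Vcan and F13a1 over single monocytes. At full depth r for Ly6c2 was 0.357 aged and 0.485 young for Fn1, and 0.507 and 0.530 for F13a1. With cells thinned to 2000 UMIs these fell to 0.126 and 0.324 for Fn1, and 0.222 and 0.332 for F13a1.

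In neutrophils Fn1, Vcan and F13a1 were not told apart from free RNA. Fn1 stood at 18.1 CPM (14.7 to 22.0) in aged and 36.5 CPM (28.7 to 45.8) in young neutrophils, beside 7.17 CPM (0.182 to 40.0) in aged and 33.4 CPM (10.8 to 78.0) in young NK cells. The ratio of 0.495 (0.362 to 0.678) in neutrophils is therefore not read as neutrophil expression. In cDC F13a1 stood at 117 CPM (93.1 to 145) in the aged and 187 CPM (147 to 235) in the young library, a ratio of 0.624 (0.450 to 0.866), where 5.95% of 2504 cDC genes were 1.5-fold lower in the aged library. F13a1 was found in 31.7% of 104 aged and 51.9% of 52 young cDC, which makes it the gene of the group found most often in that cell type.

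**Figure D5:**
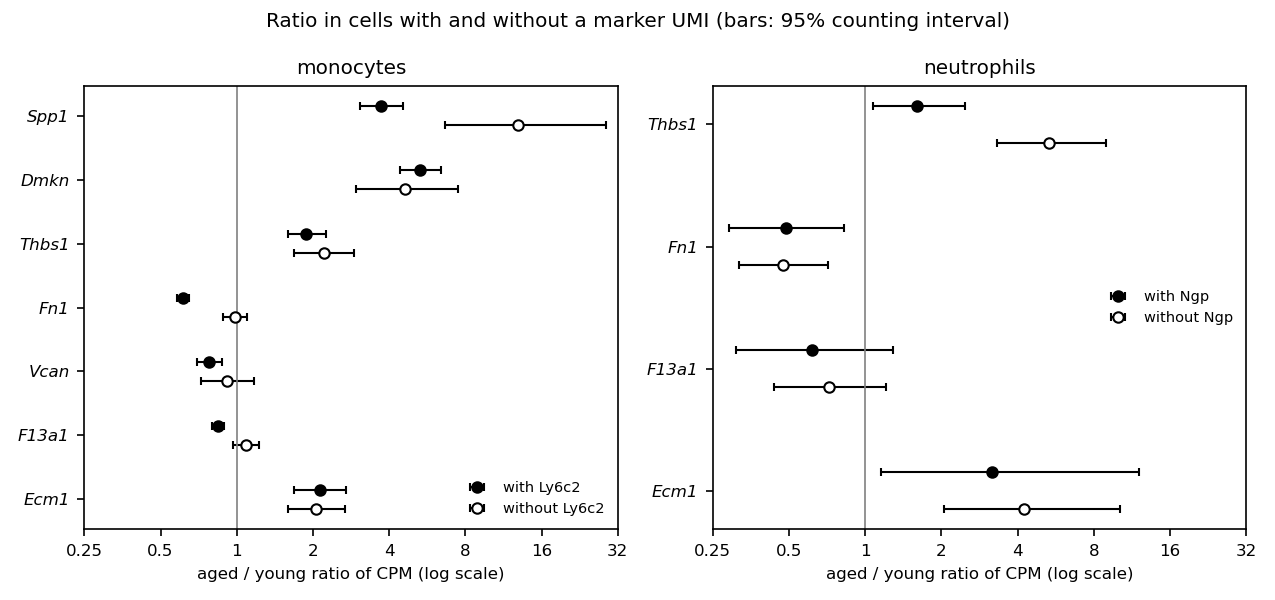
Aged-to-young ratio (log scale, 95% counting intervals) in monocytes with (filled) and without (open) a Ly6c2 UMI at 2000 UMIs per cell, and in neutrophils with and without a Ngp UMI at 1000 UMIs per cell. Only the markers were scored at these depths, and the ratios are from full-depth counts. Fn1 had a ratio of 0.612 in monocytes with Ly6c2 and 0.987 in those without, and Thbs1 had a ratio of 1.60 in neutrophils with Ngp and 5.31 in those without.

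Thbs1 was called higher in the aged library in monocytes and in neutrophils, as was Ecm1. It encodes thrombospondin 1, a glycoprotein that platelets and myeloid cells release, which binds CD36 and CD47 and can activate latent TGF-beta. In monocytes Thbs1 (chr2:118111876-118127133, plus strand) stood at 135 CPM (126 to 144) in the aged and 68.4 CPM (60.2 to 77.5) in the young library. In neutrophils it stood at 74.4 CPM (67.4 to 82.0) in aged and 23.7 CPM (17.5 to 31.4) in young cells. The aged library was higher in both cell types with no overlap of intervals, at ratios of 1.97 (1.71 to 2.28) in monocytes and 3.14 (2.33 to 4.33) in neutrophils. The difference between these ratios was not tested. Neutrophils held 31.4% of the Thbs1 UMIs of the aged and 15.9% of those of the young library. On the log2 scale the neutrophil ratio of Thbs1 stood 1.89 above the median of all neutrophil genes.

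Among monocytes at 2000 UMIs per cell Thbs1 was found in 18.5% of aged (16.0% to 21.1%) and 13.2% of young cells (10.5% to 16.5%). A Thbs1 UMI was found in 6.77% of aged neutrophils (5.84% to 7.80%) and 2.03% of young neutrophils (1.29% to 3.03%) with each cell thinned to 1000 UMIs, and in 11.1% and 3.71% at full depth, where median depths were 1900 and 1629 UMIs. In NK cells at 1000 UMIs it was found in 1 of 58 aged (1.72%, 0.0436% to 9.24%) and 1 of 70 young cells (1.43%, 0.0362% to 7.70%), so the young neutrophil share is not above that background. Neutrophils with and without Thbs1 were compared for Ngp, which encodes a granule protein made early in neutrophil maturation and was picked after values were seen. Ngp was found in 39.3% of 178 aged neutrophils with Thbs1 (32.1% to 46.9%) and 31.8% of those without (29.9% to 33.6%), and in 56.5% of 23 young neutrophils with it (34.5% to 76.8%) and 22.6% of those without (20.2% to 25.2%). The Ngp intervals overlap in the aged and not in the young library. Ngp was one of several markers compared. In the young library Mmp8 also differed, at 91.3% with Thbs1 (72.0% to 98.9%) and 50.5% without (47.5% to 53.4%). Ly6g stood at 26.1% on both sides, no Ltf was found, and the intervals overlapped for Camp, Mmp9, Cxcr2 and Csf3r. The Thbs1 ratio of the ages was larger in neutrophils without Ngp, a difference that was not tested. Ngp was scored at 1000 UMIs per cell, while the levels in this split are from full-depth counts. In neutrophils with Ngp, 32.3% of aged and 23.3% of young cells, Thbs1 stood at 86.7 and 54.1 CPM (ratio 1.60, 1.08 to 2.47), and in those without at 67.7 CPM in aged and 12.75 CPM in young cells (ratio 5.31, 3.33 to 8.97). That young value is no higher than the 13.4 CPM of young NK cells, and aged NK cells stood at 7.17 CPM.

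Platelets are a known source of Thbs1, and their transcripts were more frequent in the aged library in neutrophils and monocytes but not in NK cells. The 11 platelet markers in the table summed to 42.3 CPM in aged and 17.3 CPM in young neutrophils, with 11 and 4 of them above 0, and to 19.2 CPM in aged and 6.35 CPM in young monocytes, with 10 and 4 above 0. In NK cells they summed to 78.9 CPM in aged and 160 CPM in young cells, with 6 and 5 above 0. Cells with at least 2 platelet UMIs numbered 28 of 2628 aged and 3 of 1133 young neutrophils and held 5 of 408 aged and 1 of 48 young Thbs1 UMIs. Without them Thbs1 stood at 74.3 CPM in aged and 23.3 CPM in young neutrophils.

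Within monocytes Thbs1 showed no clear pairing with Spp1 or Dmkn. In the aged library Spp1 was found in 13.6% of monocytes with Thbs1 and 18.0% of those without, and Dmkn in 21.3% and 26.4%, with overlapping intervals, and in the young library 5 and 2 of 69 monocytes with Thbs1 held them. Ly6c2 was found in 70.4% of aged monocytes with Thbs1 and 69.3% of those without, and in 68.1% and 65.0% of the young. The ratio of the ages was 1.88 (1.59 to 2.24) in monocytes with Ly6c2 and 2.21 (1.69 to 2.91) in those without. The genes most like it were S100a11, Chil3, Saa3, Fth1 and S100a8, all with an r below 0.24 in both libraries, which is weak.

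Ecm1 and Adamtsl4 are neighbours on chromosome 3, both on the minus strand. Ecm1 (chr3:95734147-95739569) encodes extracellular matrix protein 1, a secreted glycoprotein that binds matrix components, and Adamtsl4 (chr3:95676201-95687917) encodes a protein related to the ADAMTS proteases without their enzyme domain, known for its link to fibrillin fibres. The gap between them is 46229 bases with 0 protein-coding genes in it.

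Promoter windows of this pair are the following.
Ecm1 (chr3:95739520-95739819, minus strand): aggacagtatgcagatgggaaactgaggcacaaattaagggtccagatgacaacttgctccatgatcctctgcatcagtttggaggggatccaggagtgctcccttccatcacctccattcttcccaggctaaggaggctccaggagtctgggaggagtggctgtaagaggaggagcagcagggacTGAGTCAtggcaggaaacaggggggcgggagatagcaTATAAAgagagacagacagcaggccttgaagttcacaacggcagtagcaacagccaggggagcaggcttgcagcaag
Adamtsl4 (chr3:95687868-95688167, minus strand): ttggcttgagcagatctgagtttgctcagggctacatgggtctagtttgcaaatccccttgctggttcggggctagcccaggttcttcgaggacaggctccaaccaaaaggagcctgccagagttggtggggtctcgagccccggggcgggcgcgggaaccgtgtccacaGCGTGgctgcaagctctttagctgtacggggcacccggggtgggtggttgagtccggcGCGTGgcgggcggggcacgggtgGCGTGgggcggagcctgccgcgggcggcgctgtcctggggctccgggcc

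These RefSeq windows (GRCm38.p6) are shown because both genes were higher in aged neutrophils. In the Ecm1 window the AP-1 letters lay at −64 to −58 and TATAAA at −27 to −22, the AP-1 match being the same TGAGTCA as in the Dmkn window. The Adamtsl4 window held 3 GCGTG matches, which begin at −80, at −22 and at the base that follows the start base. It held 0 matches of the other motifs, with 68.0% G or C, against 54.7% in the Ecm1 window.

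Ecm1 stood at 99.1 CPM (91.6 to 107) in aged and 49.1 CPM (42.2 to 56.9) in young monocytes, a ratio of 2.02 (1.71 to 2.40). In neutrophils it stood at 23.0 CPM (126 UMIs) in aged and 5.92 CPM (12 UMIs) in young cells, a ratio of 3.88 (2.15 to 7.71). Aged cells were higher in both cell types without overlap of the intervals, and the monocyte ratio was 2.12 (1.69 to 2.69) with and 2.05 (1.59 to 2.67) without Ly6c2. Ecm1 was found in 16.6% of aged (14.3% to 19.2%) and 8.83% of young monocytes (6.54% to 11.6%) at 2000 UMIs per cell. Adamtsl4 differed between them. In neutrophils it stood at 13.7 CPM (75 UMIs) in aged and 1.97 CPM (4 UMIs) in young cells, a ratio of 6.93 (2.60 to 26.1), and in monocytes at 9.52 CPM (61 UMIs) in aged and 8.83 CPM (32 UMIs) in young cells, a ratio of 1.08 (0.692 to 1.71). The intervals of neutrophils and of all monocytes do not overlap, and the difference itself was not tested. Split by Ly6c2, the monocyte ratio of Adamtsl4 was 1.71 (0.944 to 3.29) with it, from 49 aged and 15 young UMIs. Without Ly6c2 it was 0.471 (0.205 to 1.05), from 12 aged and 17 young UMIs. The interval of monocytes with Ly6c2 overlaps that of neutrophils. Of the nearest protein-coding neighbours outside the pair, the survival gene Mcl1 stood in neutrophils at a ratio of 0.830 (0.778 to 0.886), while Tars2, a mitochondrial tRNA ligase, stood at 1.39 (0.442 to 5.74) from 15 aged and 4 young UMIs.

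No NK cell held an Ecm1 or Adamtsl4 UMI, but at this depth that allows up to 21.5 CPM in aged and 20.05 CPM in young NK cells, so this guide does not tell free RNA from expression for the neutrophil values of either gene. Aged neutrophil Ecm1, at 23.0 CPM (19.1 to 27.4), stood at about that limit, and young Ecm1 and both Adamtsl4 values below it. The part of free RNA in their neutrophil ratios was not tested. In the aged library the monocyte level was 31.1 times the neutrophil level for Fn1 (25.5 to 38.4), 4.31 times for Ecm1 (3.56 to 5.26), 1.81 times for Thbs1 (1.61 to 2.04) and 0.696 times for Adamtsl4 (0.488 to 0.989). Neutrophils held 52.1% of the Adamtsl4 UMIs of the aged and 10.0% of those of the young library. The 28 aged neutrophils with at least 2 platelet UMIs held 3 of the 75 Adamtsl4 and 2 of the 126 Ecm1 UMIs, and the 16 aged monocytes with as many held 23 of the 635 Ecm1 UMIs, without which Ecm1 stood at 97.2 CPM in aged and 48.9 CPM in young monocytes. Neutrophils with Ngp had Ecm1 ratios of 3.16 (1.16 to 12.1) and those without 4.22 (2.04 to 10.1). At full depth 6 aged neutrophils held both Ecm1 and Adamtsl4, of 111 and 72 with either, and 0 young neutrophils did. Relative to the median of all neutrophil genes, the ratio of Ecm1 stood 2.20 and that of Adamtsl4 3.03 higher on the log2 scale, from 12 and 4 young UMIs. A scaling factor common to all genes cancels from these distances by arithmetic, so they are no check of the scaling.

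Among monocytes Ecm1 lay with more macrophage marker transcripts, and in the aged library with Ly6c2 less often. Ly6c2 was found in 59.2% of aged monocytes with Ecm1 (51.0% to 67.1%) and 71.6% of those without (68.2% to 74.7%), while young values of 56.5% (41.1% to 71.1%) and 66.3% (61.9% to 70.6%) overlapped. The macrophage markers averaged 13.4 UMIs per 2000 in aged monocytes with Ecm1 and 8.61 in those without, and 12.0 and 7.63 in the young. Most of the macrophage marker sum over all monocytes was Apoe, which was also the gene most like Ecm1. The 11 classical markers together averaged 55.9 in aged monocytes with Ecm1 and 50.9 in those without, and 66.2 and 56.3 in the young. C1qa, a complement gene of macrophages, was found in 11.2% of aged monocytes with Ecm1 (6.65% to 17.3%) and 5.24% of those without (3.77% to 7.07%). These intervals overlap, and C1qa is given as an example of several macrophage genes compared, in the aged library alone. Spp1 was found in 13.2% of aged monocytes with Ecm1 (8.23% to 19.6%) and 18.0% of those without (15.3% to 20.9%), intervals that overlap, and in 0 of 46 young monocytes with Ecm1, which allows a share of up to 6.52%. In full-depth counts Ecm1 stood at 78.8 CPM (70.4 to 88.0) in aged monocytes with a Spp1 or Dmkn UMI and 133 CPM (119 to 148) in those with neither, and at 31.6 CPM (21.1 to 45.3) and 55.1 CPM (46.6 to 64.7) in the young. The aged library was thus higher on both sides of that split. The genes most like Ecm1 were Apoe, Sepp1, Itm2b, Ctss and Lgmn, at a full-depth r of 0.172 to 0.236. Each r was smaller after thinning, down to 0.035 for Sepp1 in the young library. Cells labelled Mast cell, found in the aged library alone, held the highest Ecm1 level of any population at 146 CPM (80.0 to 246), from 14 UMIs in 9 of 42 cells, an interval that takes in the aged monocyte level.

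Timp1 encodes a secreted inhibitor of matrix metalloproteinases, and was one of the rarest of the 9 genes. In monocytes Timp1 (chrX:20870166-20874735, plus strand, overlapping Syn1) stood at 10.3 CPM (66 UMIs) in the aged and 4.14 CPM (15 UMIs) in the young library, a ratio of 2.49 (1.41 to 4.70). In cDC it stood at 50.02 CPM (36 UMIs) and 20.5 CPM (8 UMIs), a ratio of 2.44 (1.11 to 6.07) from fewer than 50 UMIs. Both cell types were higher in the aged library, and the cDC level was above the monocyte level in each library. The monocyte UMIs lay in 38 of 932 aged and 9 of 540 young cells, with 13 UMIs in 1 aged cell and 5 in 1 young cell, so few cells decided the level. In monocytes with Ly6c2 the ratio was 1.43 (0.776 to 2.79), and in those without there were 25 aged and 0 young UMIs. Neutrophils held 1 aged and 3 young UMIs.

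Dmkn in cDC went against the monocyte direction. It stood at 9.73 CPM (3.91 to 20.04, 7 UMIs in 6 of 104 cells) in aged and 48.7 CPM (29.3 to 76.1, 19 UMIs in 8 of 52 cells) in young cDC, and 9 of the young UMIs lay in 1 cell. Classical monocyte markers summed to 10340 CPM in aged and 11866 CPM in young cDC, and their part in this was not tested. Spp1 in cDC was alike in the libraries within a wide interval, at 19.5 CPM in aged and 17.9 CPM in young cells (ratio 1.08, 0.409 to 3.17).

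The number of the 9 genes found in a monocyte was counted at 2000 UMIs per cell. In the aged library 9.18% of monocytes held none of them, 31.1% held 2 and 13.1% held 4, and in the young library 11.5%, 34.0% and 7.87%. No cell of either library held more than 6.

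Among other matrix genes in monocytes, higher calls outnumbered lower ones for proteases and protease inhibitors. The lists were chosen with earlier results known, and stand beside 5.9% of all monocyte genes higher, 8.68% lower and a median log2 ratio of 0.01. Among other matrix glycoproteins 1 of 12 tested was higher and 1 lower, with a median of 0.05, and the most abundant, Tgfbi, an integrin ligand induced by TGF-beta, stood at 1831 CPM in aged and 1561 CPM in young monocytes (ratio 1.17, 1.14 to 1.21). Of 22 collagens, 4 were in the table and 0 reached 50 UMIs. Serglycin (Srgn), the proteoglycan of secretory granules, had a ratio of 1.35 (1.29 to 1.41). Among matrix proteases 4 of 22 were higher and 1 lower, with a median of 0.16. The lysosomal protease cathepsin L (Ctsl) stood at 384 CPM in aged and 168 CPM in young monocytes (ratio 2.28, 2.09 to 2.50), and neutrophil elastase (Elane) at 18.1 and 3.86 CPM (ratio 4.69, 2.68 to 8.84). Among protease inhibitors 4 of 10 were higher and 0 lower, with a median of 0.38, led by Spint1 at 2.73 (1.88 to 4.07) and Serpinb1a at 2.17 (1.78 to 2.67), an inhibitor of neutrophil proteases. The crosslinking and processing list had 1 of 7 higher and 0 lower with a median of 0.17, the tissue transglutaminase Tgm2 at 1.56 (1.09 to 2.25). Without ribosomal and mitochondrial genes in the total, Tgm2 was no longer called higher at 1.49, nor was the protease inhibitor Cstb at 1.48. In that setting 4.32% of all monocyte genes were higher and 10.8% lower, and the inhibitors had 3 higher and 0 lower.

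The receptors of the 9 proteins and the pathways around them are read against the same shares of 5.9% higher and 8.68% lower. Of 23 receptors tested 2 were higher and 4 lower, with a median of −0.06. Cd44, which binds osteopontin and versican, stood at 268 CPM in aged and 278 CPM in young monocytes (ratio 0.962, 0.890 to 1.04). The higher receptors were Cd63, which binds Timp1, at 2.38 (1.58 to 3.70) and Cd74 at 1.68 (1.60 to 1.75). Cd36, a receptor of thrombospondin 1, was lower at 0.341 (0.213 to 0.539), as was the syndecan Sdc3 at 0.193 (0.0946 to 0.371). Of 9 genes tested from the coagulation list 1 was higher, S100a10, a cell surface cofactor of plasmin formation (1.76, 1.69 to 1.84). The 1 lower gene, F11r (0.625, 0.469 to 0.832), encodes a junctional adhesion molecule and not a coagulation factor. The hypoxia and glycolysis list had 5 of 20 higher and 1 lower with a median of 0.28, among them Pgk1 at 2.14 (1.78 to 2.60) and, on the lower side, Hk2 at 0.527 (0.433 to 0.641). The TGF-beta pathway had 0 of 12 higher and 4 lower with a median of −0.48, including the receptor Tgfbr1 at 0.557 (0.457 to 0.680) and Smad4 at 0.607 (0.463 to 0.797). Of lipid-associated macrophage genes, 4 of 20 were higher, among them Cd9 at 1.97 (1.58 to 2.49), and 5 lower, among them Lpl at 0.242 (0.138 to 0.412). The hypoxia list had 6 higher with TMM scaling. Without ribosomal and mitochondrial genes in the total it had 3, with Tpi1 at 1.48 and Mif at 1.44 no longer called. The lipid-associated list then had 3 higher, and the receptors and the TGF-beta pathway each had 5 lower.

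In neutrophils the same lists stand beside 3.81% of all genes higher, 20.3% lower and a median of −0.24, and with TMM scaling beside 10.4% higher, 6.97% lower and 0.07. Other matrix glycoproteins had 0 of 8 higher and 2 lower, Fgl2 at 0.524 (0.476 to 0.576) and Vwa1 at 0.218 (0.119 to 0.389), with a median of −0.50. Protease inhibitors had 2 of 9 higher and 2 lower, with Serpinb1a at 159 CPM in aged and 41.0 CPM in young neutrophils (ratio 3.88, 3.10 to 4.93) and Slpi, an elastase inhibitor, at 0.653 (0.637 to 0.669). With TMM scaling Slpi stood at 0.810 and was not called, and the inhibitors had 4 higher and 1 lower. Of 17 matrix proteases 2 were higher and 3 lower, and of 15 receptors 0 were higher and 1 lower, the integrin subunit Itga4 at 0.391 (0.303 to 0.506). With TMM scaling the proteases had 4 higher and 1 lower, with a median of 0.17 in place of −0.14, and the receptors 3 higher and 1 lower, with 0.24 in place of −0.08. The hypoxia and glycolysis list had 2 of 17 higher and 3 lower, and its Hilpda, a lipid droplet protein induced by hypoxia, held 63 aged and 2 young UMIs (ratio 11.6, 3.09 to 98.3). Among 5 coagulation genes 1 was higher, F5 at 2.22 (1.28 to 4.13), and 0 lower. Of 9 TGF-beta pathway genes, Acvrl1 was higher at 2.03 (1.09 to 4.13) and 2 were lower, Tgfb1 at 0.446 (0.353 to 0.565) and Smad2 at 0.508 (0.315 to 0.828).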

How the data were processed

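Blood myeloid cells of the aged and the young library were measured by 10x Genomics 3′ v2 single-cell RNA sequencing. The deposited values are whole UMI counts per gene and cell in 1 table, with the authors' cell type label per cell, and were made with Cell Ranger 2.1.1 on mm10, per the submitters' processing notes. No normalization had been applied to the deposited counts, as the whole numbers in the file show.

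Cells passed at 200 genes, 500 UMIs and at most 10% mitochondrial UMIs, which removed 0. Scrublet in scanpy 1.11.5 called 0 aged and 4 young doublets with its automatic threshold, which has not worked, so the highest scores were removed at 8 per 1000 for each 1000 cells (124 aged and 27 young cells). UMIs were summed per label and library. Intervals at 95% are exact (Poisson for levels, Clopper-Pearson for shares, conditional binomial for ratios; scipy 1.17.1) and cover counting error only. With 1 library per age no test of age exists. The summing and calling were tested on simulated counts.

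The 9 genes and all gene lists were chosen with earlier results of these data known. Named list genes are the up to 4 most abundant and the up to 3 in each direction past 1.5-fold with the interval bound farthest from 1, of which the text gives some. Genes most like a member are the 5 with the highest lower r of log(1 + count scaled to 10000), among genes with at least 200 monocyte UMIs. Promoters of 7 of the 9 genes (11 windows) were found in the RefSeq table. Alternatives covered doublets, cell filters, platelet cells, depth, scaling (TMM, edgeR 4.0.16), gene minimum and fold, and splits by Ly6c2 and Ngp were added after the data were seen.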

Additional observations from a re-analysis of the deposited data

Results flagged for a closer look

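Dmkn moved in opposite directions in monocytes and dendritic cells. Its aged-to-young ratio was 0.200 (0.0709 to 0.496) in cDC, from 7 aged and 19 young UMIs, and 5.42 (4.58 to 6.45) in monocytes. What drew attention is that the libraries differ one way in one cell type and the other way in the other, with 1 library per age. The difference was not tested. The young cDC value rests on 8 of 52 cells, and 9 of its 19 UMIs lay in 1 cell.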

How the results depend on the processing

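No ratio of the 9 genes changed direction while called under any alternative listed in processing, and 116 of the planned ratios moved by less than their counting interval and 8 by more, all 8 at 500 UMIs per cell. With each cell thinned to 500 UMIs, monocytes had 1 gene lower (Fn1, against 0), neutrophils 1 higher (Thbs1, the 1 gene left to test, against 3) and 0 lower (against 1), and 5 of 16 ratios had an interval beyond 1, against 13 of 18, with fewer UMIs by construction. Fn1 was also the 1 monocyte gene lower when ribosomal and mitochondrial genes were left out of the total. With genes from 20 UMIs neutrophils had 5 higher, Spp1 and Dmkn added, and 2 lower, Vcan added, and with genes from 200 UMIs 1 higher (Thbs1) and 0 lower. Without doublet removal neutrophils had 4 higher, Spp1 added. Of the 36 pairs of genes 28 were found together more often in both libraries at full depth, but 15 at 2000 UMIs and 5 of 21 at 500 UMIs, so co-detection is given at 2000 UMIs. Over all genes, monocyte calls were 459 higher and 675 lower, against 248 and 103 at 500 UMIs, 336 and 840 without ribosomal and mitochondrial genes, 704 and 1046 from 20 UMIs, 181 and 212 from 200 UMIs, and 109 and 162 at 2-fold. Neutrophil calls were 181 higher and 962 lower, against 493 and 331 with TMM, 89 and 487 at 500 UMIs, 382 and 1615 from 20 UMIs, 50 and 356 from 200 UMIs, and 49 and 250 at 2-fold. The list counts under other scalings were added after the data were seen. No paired analysis was possible because each age has 1 library. The limits are this lack of replicates, the shallow neutrophils, and the 58 aged and 70 young NK cells, too few to set free RNA below about 20.05 CPM.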
